A study of Mus musculus with 4 samples.

Results

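The J segments of the T cell receptor alpha locus (Tcra), its constant region Trac and the interval behind Trac that holds the Tcra enhancer were examined in ATAC-seq peak lists of mouse thymocytes. ATAC-seq marks open chromatin by the insertion of sequencing adapters with a transposase. The interval was set by position on chromosome 14 of mm10, from the start of Traj61 at 54155005, through Traj1 and Trac (54220521 to 54224198), to 6071 bp past the gene Dad1 (54235485 to 54253929). Every peak whose midpoint lay in this interval was taken, which gave 46 of the 182042 peaks in the 4 lists, and 60 annotated Traj segments were followed from 5′ to 3′. Traj10 was not analysed here.

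The 4 samples were thymocytes of C57BL/6J mice, 5 to 7 weeks old, labelled wild type and sorted directly from the thymus without treatment. Of these, 2 samples (DN 1 and DN 2) were CD4-CD8- double-negative cells labelled CD25+CD44-/+. The other 2 (DP 1 and DP 2) were CD4+CD8+ double-positive cells. The labels describe each library as nucleosome-free chromatin and name no animal or pool, so p-values here measure only the spread between these samples, which may be technical.

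In a developing T cell the alpha chain is assembled in double-positive cells by joining 1 V segment to 1 J segment. The J segments form a long array, and rearrangement begins at its 5′ end and moves toward Trac in later rounds, so that a cell can try several alpha chains. Germline promoters, among them the T early alpha promoter just ahead of the array and a promoter at Traj49 inside it, open J segments to the recombinase, and the enhancer between Trac and Dad1 drives them. Dad1, which encodes a subunit of the oligosaccharyltransferase of the endoplasmic reticulum, is active in most tissues.

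The lists held 38808 and 33131 peaks in DN 1 and DN 2, and 39718 and 70385 in DP 1 and DP 2. Read depth is unknown, since the lists give no counts, and a site without a peak may be closed or may have had too few reads. Marker genes were checked as peaks in the gene span widened by 10 kb. Cd8a had 0 and 0 peaks in the DN lists and 4 and 5 in the DP lists, and Cd4 had 1 and 0 against 9 and 7. Il2ra, the gene of the CD25 used for sorting, went the other way from its label, with 7 and 2 peaks in DN and 9 and 9 in DP. The B cell genes Cd79a and Pax5 together held 3, 2, 4 and 10 peaks in DN 1, DN 2, DP 1 and DP 2. The 3 myeloid genes Csf1r, Itgam and Cebpa held 3, 1, 3 and 2, with Csf1r at 0 in every list. Whether such cells had a part in the results below was not tested.

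Of the annotated starts in the interval, those of Dad1 and of its divergent neighbour Abhd4, a lipid hydrolase gene, have sequence in the RefSeq promoter table (GRCm38.p6, the same build as mm10). The stretches shown are the 199 bases just before an annotated start. The first is shown because all 4 lists held a peak over the whole of it, and it is the full stretch between the oppositely oriented starts of Dad1 and Abhd4 (chr14:54253930-54254128, minus strand, so reading toward Dad1). The second precedes an internal start of Abhd4 (chr14:54259084-54259282, plus strand), and DP 2 was the 1 list with a peak over it. Capitals mark matches to 5 short motifs, each searched on both strands. The motif CCAAT is the box of that name, bound by NF-Y in many promoters. The GC box, bound by SP and KLF factors, was searched as GGGCGG. For the ETS family of factors the core letters were CCGGAA. For RUNX factors, which act at the Tcra enhancer, they were TGTGGT. The TATA box of core promoters was searched with the letters TATAAA.
Dad1 and Abhd4, shared: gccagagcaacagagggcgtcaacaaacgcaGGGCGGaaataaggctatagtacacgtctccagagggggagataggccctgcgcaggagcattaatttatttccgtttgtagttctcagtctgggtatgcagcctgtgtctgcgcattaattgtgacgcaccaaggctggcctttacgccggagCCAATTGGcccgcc
Abhd4, internal start: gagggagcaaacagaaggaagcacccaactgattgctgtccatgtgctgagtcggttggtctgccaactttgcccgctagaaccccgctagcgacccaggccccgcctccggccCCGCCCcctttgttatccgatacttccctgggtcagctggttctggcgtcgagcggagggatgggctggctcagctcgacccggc

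The shared stretch held 2 overlapping CCAAT matches, 1 on each strand, and 1 GC box. The internal Abhd4 stretch held 1 GC box and no CCAAT match. Of the 32851 promoters in the table, 29.3% had a CCAAT match and 31.0% a GC box in the same 199 bases. The other 3 motifs had no match in either stretch, against 10.7% of promoters for the ETS core, 11.1% for the RUNX core and 9.9% for the TATA box. The shared stretch had 11 CpG dinucleotides and the internal one 13, where the median promoter had 5. At least as many were found in 31.6% of promoters for the shared stretch and in 27.0% for the internal one. No Traj segment and no Trac entry is in the promoter table, so no sequence of the J array is shown.

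The J array was marked by peaks in DP cells and carried none in the DN lists. From Traj61 to the end of Trac (the J-C part, 69.2 kb), DN 1 and DN 2 held 0 peaks each, DP 1 held 21 and DP 2 held 11. The DP mean was 16 ± 7.07 (SD, n = 2) against 0 ± 0 in DN, and the groups did not overlap. Both DP lists exceeded both DN lists in 16.4% of all windows of this length in the genome, and the reverse held in 5.63%. With 2 samples per group the exact permutation test (two-sided) gave p = 0.33, the smallest that 3 splits allow, so no difference in this design can pass it.

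Many of the DP 1 peaks overlapped each other, and this moved the count. With overlapping peaks of 1 list counted once, a setting chosen after the data were seen, DP 1 had 11 separate stretches and DP 2 had 9, and the difference between groups was 10 in place of 16. Of the 21 peaks of DP 1, 9 were at the largest p-value of that list, as were 3 of the 11 of DP 2. In the better-ranked 50% of each list DP 1 held 6 peaks and DP 2 held 8, and the difference fell to 7. The cut fell among tied p-values in both DP lists, and ties were ordered by chromosome and position. DP 1 peaks of the J-C part at a deposited p-value of 0.000144 were left out, and a DP 2 peak at 0.000390 was kept. Which DP list held more peaks there therefore depends on how ties are ordered. Peaks covered 9.39% of the J-C part in DP 1 and 6.58% in DP 2.

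**Figure D1:**
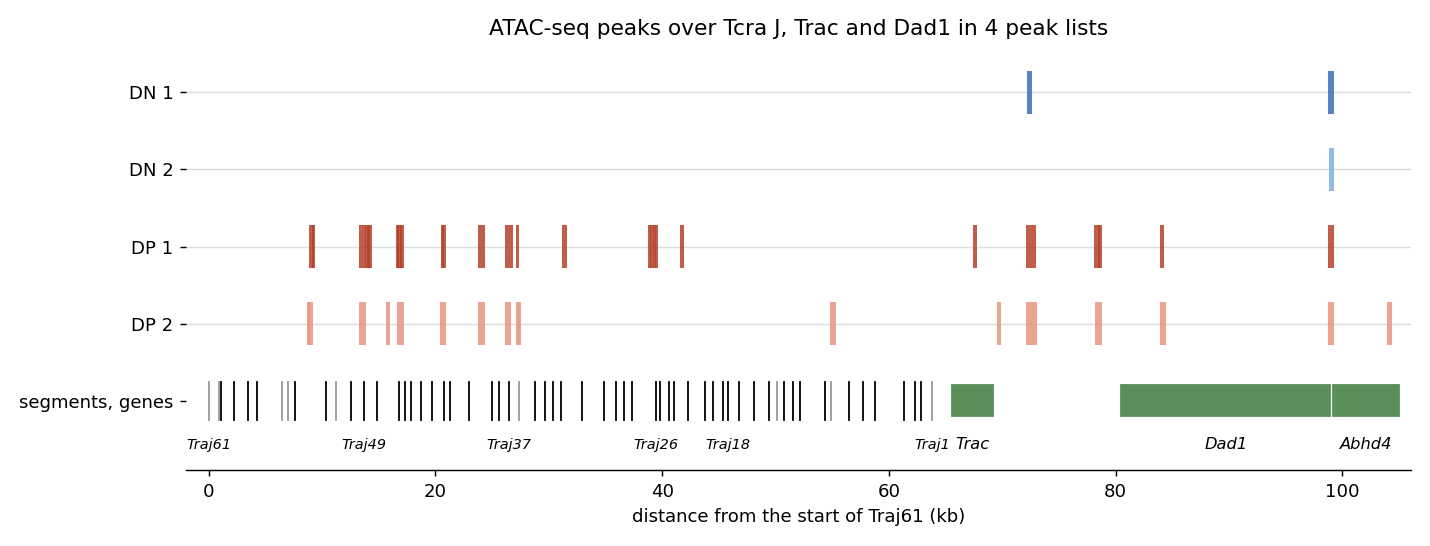
Peaks of the 4 lists (rows) along the interval, drawn to scale against the distance from the start of Traj61 in kb. Black ticks are Traj segments, grey ticks Traj pseudogenes, and green boxes Trac, Dad1 and the part of Abhd4 up to the end of the interval. Both DN rows are empty over the J segments, whereas the DP rows hold 21 and 11 peaks up to the end of Trac.

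The 46 peaks fell into 19 regions when peaks sharing at least 1 bp were joined. Of these, 9 were held by both DP lists and neither DN list (DP-only), 1 by both DP lists and DN 1, 1 by all 4 lists, and 8 by a single DP list. No region was held by the DN lists alone. Among all 107621 regions of the genome 7.44% were DP-only, 2.51% were DN-only, 7.39% were held by all 4 lists, and 71.8% came from 1 list. Of the 17 peaks of DP 2 in the interval 76.5% were overlapped by a DP 1 peak, against 36.7% of all its peaks. Of the 26 peaks of DP 1 65.4% were overlapped by a DP 2 peak, against 64.9%. These shares were not tested against each other.

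The reproducible DP-only regions of the J array lay close together. All 7 of them fell in a stretch of 18.9 kb that starts at 54163651, between Traj53 and Traj52, and ends at Traj36. The 12 segments at the 5′ end, Traj61 to Traj50 (12.6 kb), had no peak within 500 bp in any list. Behind Traj36 no region was held by both DP lists for 44.5 kb, until the region behind Trac. This gap takes in 34 of the 60 segments (56.7%), Traj35 to Traj1, and Trac. It was not empty, since 4 DP 1 regions and 2 DP 2 regions lay in it, but none of these was found in the other list.

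Per segment, a peak overlapped or lay within 500 bp of 13 Traj segments in DP 1 and 9 in DP 2, and of 0 in each DN list. That is 21.7 and 15.0% of the segments in the DP lists, with a mean of 11 ± 2.83 (SD, n = 2) against 0 ± 0 (exact permutation p = 0.33, two-sided, the smallest possible). In all, 15 segments had a peak in some list and 45 in none. Of the 15, 7 had one in both DP lists, 6 in DP 1 alone and 2 in DP 2 alone. The 7 are 11.67% of the segments, and of genome windows of 1060 bp, the length of a segment with 500 bp on each side, 0.5% had a peak in both DP lists and neither DN list and 0.155% the reverse. These 7 segments rest on 5 regions, since neighbouring segments share peaks. Without DP 2, where DP 1 stands for its group, 13 segments were counted in place of 7, and by overlap alone 4.

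**Figure D2:**
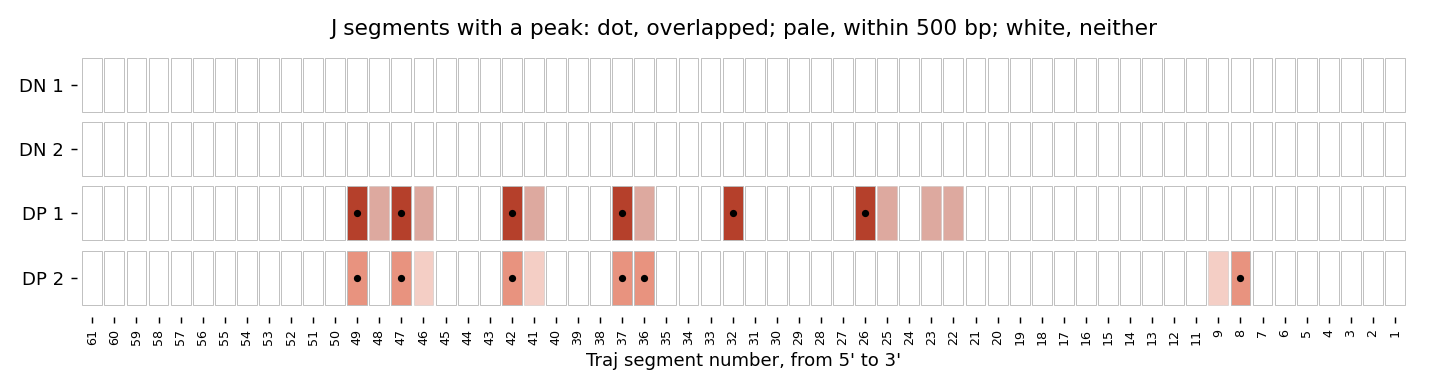
The 60 Traj segments from 5′ (left) to 3′ (right) in each of the 4 lists (rows). A dot and a full colour mark a segment overlapped by a peak, a pale colour a peak within 500 bp, and white neither. Both DN rows are white throughout, DP 1 is marked at 13 segments and DP 2 at 9, and neither DP row is marked before Traj49.

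In order from the 5′ end, the first segment with a peak was Traj49, overlapped in both DP lists. The lists DP 1 and DP 2 gave a peak with identical coordinates there, 54168301 to 54168850, and Traj49 itself is at 54168686 to 54168744. DP 1 added 3 further overlapping peaks on the 3′ side, which carry the region to 54169450 and to within 358 bp of Traj48. Traj48 was 783 bp from the nearest DP 2 peak, so it was counted in DP 1 alone. Traj47 (54171802 to 54171856) was overlapped in both lists by a region at 54171501 to 54172200, and Traj46 lay 138 bp from its end in each. A DP 2 peak between Traj48 and Traj47 (54170651 to 54171000) was near no segment and had no partner in DP 1.

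Traj42 (54175773 to 54175836) was overlapped in both DP lists by the region at 54175401 to 54175950, with Traj41 lying 321 bp behind it. Traj37 (54181518 to 54181577) was overlapped in both by the region at 54181151 to 54181800. Traj36, annotated as a pseudogene, was overlapped by a DP 2 peak and lay 2 bp from a DP 1 peak, in a region at 54182101 to 54182550. The recombination signal of a J segment lies on its 5′ side, and in 3 of these 5 regions (Traj42, Traj37 and Traj36) the region reached farther 5′ than 3′ of the segment. The 5′ reach was 301 to 385 bp in all 5, and the 3′ reach ran from 86 bp at Traj36 to 706 bp at Traj49. These are reaches of joined regions and can rest on 1 list. At Traj49 the 3′ reach came from the further DP 1 peaks, as the DP 2 peak ended at 54168850. At Traj47 the 5′ reach came from a DP 1 peak, as the DP 2 peak started at 54171651. Whether the 5′ side is favoured was not tested.

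A pair of DP-only regions lay away from any segment. One, at 54163651 to 54164400, was 916 bp from Traj52. The other, at 54178801 to 54179400, was 562 bp from Traj39. This second region held the best-ranked DP 1 peak of the J-C part, with a p-value of 4.42e-05 and 25.6% of the list's peaks at a smaller one. In DP 2 the peak there had 14.4% of the list ahead of it and was not the best-ranked, since the peaks at Traj49 and Traj42 had 13.5%. The segment nearest to the 500 bp limit on the outside was Traj38, at 516 bp in both DP lists, and on the inside Traj23, at 461 bp in DP 1.

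Toward Trac the marked segments differed between the DP lists. DP 1 alone had peaks at Traj32 and Traj26 (overlapped) and near Traj25, Traj23 and Traj22. The Traj32 peak ran from 54186151 to 54186600, and 4 overlapping peaks made up the region at 54193751 to 54194650 that reaches Traj26. DP 2 alone had a peak at 54209801 to 54210300, over the pseudogene Traj8 and 351 bp from Traj9. By position, 4 of the first 20 segments, 3 of the middle 20 and 0 of the last 20 had a peak in both DP lists. Traj33, used by the receptor of mucosal-associated invariant T cells, and Traj18, used by that of invariant natural killer T cells, had no peak within 500 bp, with the nearest 737 and 3877 bp away, both in DP 1. Among 51 segments not annotated as pseudogenes 6 had a peak in both DP lists, and among 9 pseudogene segments 1 had.

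Trac, which encodes the constant part of every alpha chain, held 1 peak, from 54222401 to 54222800, in DP 1 alone. Its p-value of 0.000286 placed it behind 57.1% of the peaks of that list.

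Behind Trac the picture changed, since DN peaks were present. From the end of Trac to the end of the interval (35.8 kb) DN 1 held 2 peaks, DN 2 held 1, DP 1 held 5 and DP 2 held 6. The means were 1.5 ± 0.71 in DN and 5.5 ± 0.71 in DP (SD, n = 2), without overlap (exact permutation p = 0.33, two-sided, the smallest possible). Both DP lists exceeded both DN lists in 10.5% of genome windows of this length, and the reverse held in 3.81%. In the better-ranked 50% of each list the difference of 4 became 2. The DP and DN values per 10000 peaks were 1.26 and 0.85 in DP and 0.52 and 0.30 in DN.

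**Figure D3:**
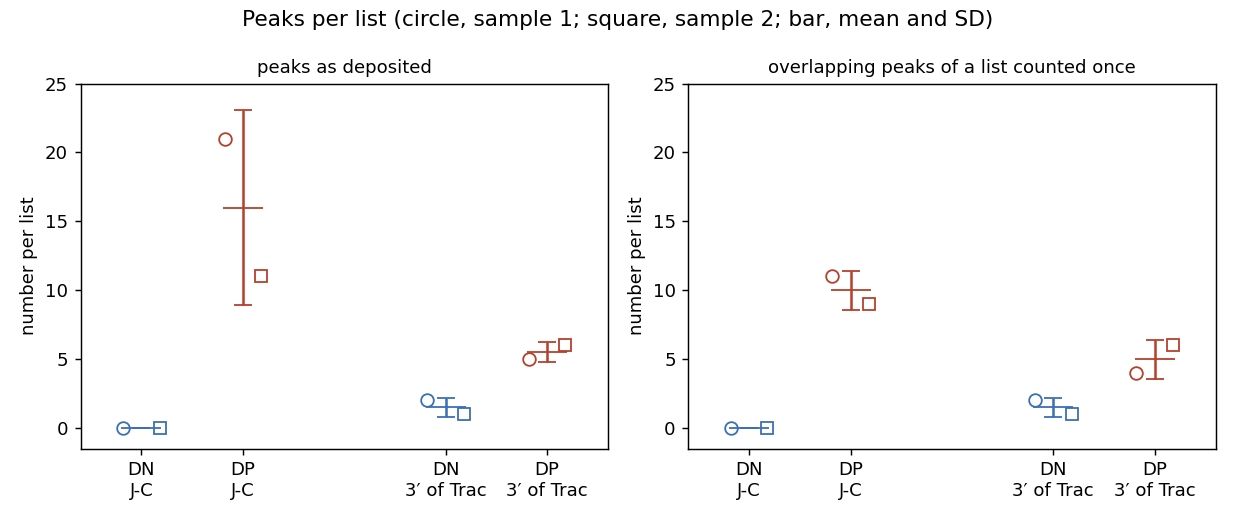
Number of peaks per list in the J-C part and in the interval 3′ of Trac, for DN (blue) and DP (red) samples. Left, peaks as deposited, and right, with overlapping peaks of a list counted once. Circles are sample 1, squares sample 2, and bars the mean with the SD of 2 samples. The DP 1 value in the J-C part goes from 21 to 11 between the panels, while the DN values there are 0 in both.

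The best-ranked site of the whole interval was the region 2853 bp behind Trac (54227051 to 54228100), in the span where the Tcra enhancer is known to lie. In DP 1 it was a peak of 900 bp, which only 4.63% of that list's peaks matched in width, and in DP 2 a peak of 1000 bp, matched by 1.36%. Both had the smallest p-value the lists give, 1e-12, which 2542 peaks (6.40%) of DP 1 and 3133 (4.45%) of DP 2 share. DN 1 held a narrower peak inside it (54227151 to 54227650, 500 bp) with a p-value of 6.19e-05 and 20.7% of its list ahead. DN 2 held none. Regions of this pattern, in both DP lists and DN 1, made up 4.88% of the genome's regions. The enhancer span was the 1 place between Traj61 and Dad1 where a DN list had a peak.

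Farther on, 2 DP-only regions followed. The first lay between Trac and Dad1, 8903 bp behind Trac (54233101 to 54233750), with 35.5 and 35.7% of the list ahead of its best peak in DP 1 and DP 2. The second lay inside Dad1, 14703 bp behind Trac (54238901 to 54239450), and its rank differed between the lists. In DP 2 its p-value was 6.50e-05 with 19.2% of the list ahead, and in DP 1 it was at the largest p-value, with 70.9% ahead. A DP 2 peak 353 bp behind Trac (54224551 to 54224900) was also at the largest p-value and had no partner.

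The start shared by Dad1 and Abhd4 was open in all 4 lists. DN 1, DP 1 and DP 2 gave a peak with identical coordinates, 54253701 to 54254300, and the DN 2 peak ran from 54253801 to 54254250. The share of the list with a smaller p-value was 20.7% in DN 1, 36.8% in DN 2, 23.4% in DP 1 and 17.4% in DP 2, so the ranks of DN 1 lay between those of the DP lists. The peak over the internal Abhd4 start (54258951 to 54259400) was in DP 2 alone, at the largest p-value of that list.

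**Figure D4:**
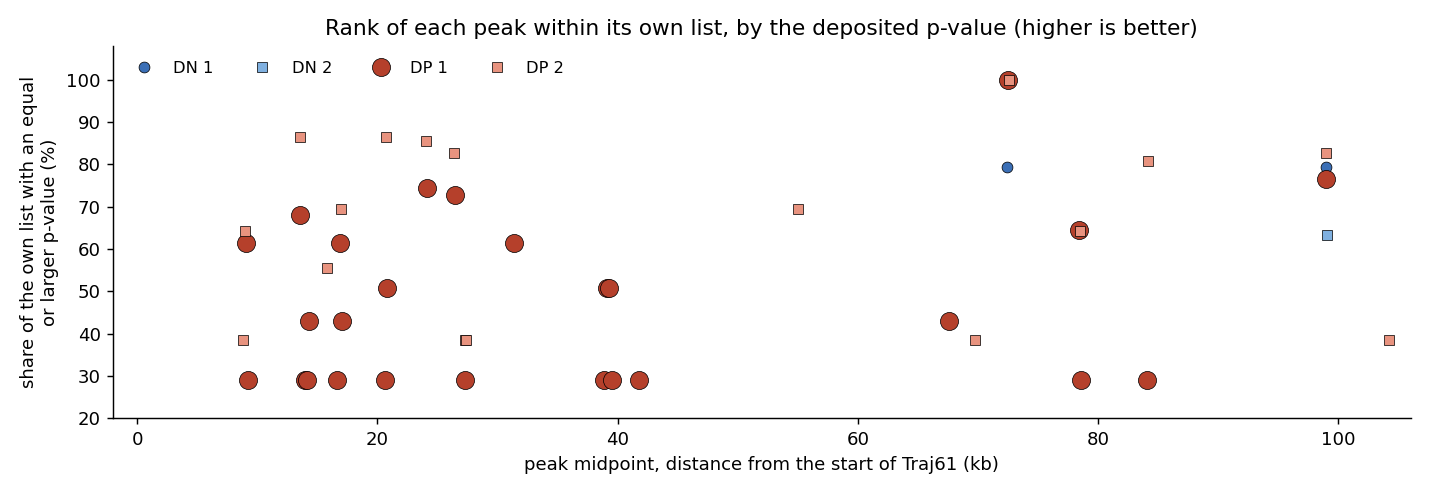
Rank of each of the 46 peaks within its own list, as the share of that list's peaks (%) with an equal or larger p-value, against the distance of the peak midpoint from the start of Traj61 in kb. Circles are sample 1, drawn larger for DP 1 so that both show where they coincide, squares are sample 2, blue DN and red DP. The DP peaks behind Trac near 72.6 kb stand at the top, and the lowest row of DP 1 is made of peaks tied at its largest p-value.

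Just outside the interval, both DP lists held a peak 1755 bp ahead of Traj61 (54152701 to 54153250 in DP 1 and 54152901 to 54153250 in DP 2), in the direction in which the T early alpha promoter lies. Its p-value was 0.000126 in DP 1 and the largest of the list, 0.000890, in DP 2. The nearest DN peaks on this side ended 31805 bp ahead of Traj61 in both lists. Past the far end of the interval the next peak was 100501 bp away in the DP lists and 257201 and 257251 bp away in DN 1 and DN 2.

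The J segments of the beta chain locus, which is rearranged in DN cells, had peaks in all 4 lists. A peak lay within 500 bp of 8 and 12 of the 14 Tcrb J segments in DN 1 and DN 2, and of 5 and 6 in DP 1 and DP 2. The share of Tcra J segments minus that of Tcrb J segments was -57.1 and -85.7 percentage points in DN and -14.0 and -27.9 in DP (exact permutation p = 0.33, two-sided, the smallest possible). The Tcrb J segments span 9.99 kb and the Tcra J segments 63.84 kb, so 1 peak reaches more segments there.

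A list of 17 genes was followed as peaks in the gene span widened by 10 kb. It holds transcription and chromatin factors of thymocytes (Runx1, Cbfb, Ets1, Lef1, Tcf7, Tcf3, Tcf12, Gata3, Myb, Ikzf1, Satb1, Ctcf and Rad21) and genes of recombination (Rag1, Rag2 and Dntt). It also holds Bcl2l1, which supports the survival of double-positive cells and does not itself recombine the locus. Of the 17 genes, 14 had more peaks in both DP lists than in both DN lists and 1 had fewer. Among all protein-coding genes these shares were 27.0 and 2.61%. The median difference of DP minus DN was 5 peaks for the 17 genes and 0.5 for all protein-coding genes. The 17 genes were not matched to the others for span length or number of peaks, and a longer span can hold more peaks. Runx1, a factor that binds the Tcra enhancer, had 4 and 0 peaks in DN and 12 and 19 in DP, and Satb1, a chromatin organiser of thymocytes, had 2 and 0 against 11 and 12. Ets1, a partner of Runx1 at that enhancer, had 4 and 2 against 11 and 10. Lef1 and Tcf7, both HMG box factors of T cells, had 3 and 2 against 8 and 10, and 2 and 0 against 8 and 7. The recombinase genes had 1 and 1 peaks each in DN, against 4 and 5 in DP for Rag1 and 4 and 8 for Rag2. A peak was counted for every gene whose widened span held its midpoint, so the Rag1 and Rag2 counts may share peaks. Rad21, a cohesin subunit, went the other way with 3 and 3 peaks in DN and 1 and 1 in DP. Gata3 (6 and 3 against 5 and 7) and Tcf12 (1 and 0 against 0 and 2) overlapped between the groups.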

How the data were processed

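The 4 files are peak lists, 1 per sample, so peaks were called per sample. The build was mm10, per the submitters' processing notes, which name Bowtie2 and Picard with no version or role. The caller, PeakDEck, is known from the names of the deposited lists, and for its settings, read filters and any shift of insertions nothing is stated in the sources at hand. Each deposited list gives a p-value per peak, the authors' own, which served here to rank peaks inside that list and nothing else. Peaks start on a 50 bp grid and are at least 300 bp wide. No pair of lists shared more than 6.26% of identical peaks.

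Gene and segment positions came from a RefSeq table of GRCm38, counted from 1. Distances are differences between the nearest coordinates. Peaks on chromosomes 1 to 19, X and Y sharing at least 1 bp were joined into regions. Genome windows were tiled end to end and include unassembled sequence. Groups were compared by an exact permutation test over samples. The interval, segments, gene and marker lists and alternatives were chosen with earlier results of these data known. The rule names every region held by 2 or more lists, every Traj segment with a peak, Trac and Dad1, and of the 17 genes the 4 with the largest difference (Lef1 and Tcf7 tied, so 5) and those at 0 or below. The values of Rag1, Rag2, Gata3 and Tcf12 were given after they were seen. The joining and distance steps were tested on simulated lists. Python 3.11.15, numpy 2.4.6, pandas 2.3.3 and matplotlib 3.10.9 were used. A gene of the marker list and a further gene of the gene list are not reported here.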

Additional observations from a re-analysis of the deposited data

How the results depend on the processing

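Every setting tried kept DP above DN for the J-C part, for the interval 3′ of Trac and for the number of segments with a peak. For the J-C part and the segments none of these settings could turn the order, since both DN lists held 0 there. The DN peak nearest to any segment lay 8309 bp from Traj1, beyond every distance limit tried. Only for the interval 3′ of Trac could the order have changed. The number of segments with a peak in both DP lists and neither DN list, 7, was 4 in the better-ranked 50% of each list. The DP 1 peak over Traj42, tied at the p-value where that list was cut, was left out there. Traj42 and Traj41 were lost with it. The number was 4 by overlap alone and 14 within 1000 bp. It ran from 7 to 13 when 1 list was left out, with 13 without DP 2. The DP minus DN difference ran from 11 to 21 peaks in the J-C part and from 3.5 to 4.5 peaks 3′ of Trac when 1 list was left out. The 9 DP-only regions were 6 in the better-ranked 50%, where the region at Traj42 was lost to the same tie. They were 8 when each list was limited to the length of the shortest one. When 1 list was left out they ran from 9 to 13, with 13 without either DP list. The 14 genes were 11 with the gene span alone. In the better-ranked 50% the cuts of DP 1, DP 2 and DN 2 fell among tied peaks, which were ordered by chromosome and position. In the limited lists the cut of DP 2 fell among tied peaks as well. The cuts of DN 1 and DP 1 there fell among peaks tied at the largest p-value of the list. With the replicate number as a block the differences are 16, 4 and 11 by construction, since the mean of the paired differences equals the difference of the means. The exact sign-flip test gave p = 0.5, the smallest that 2 pairs allow. Without read counts in the lists, no interval that needs depth was computed.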
